A study of Mus musculus with 10 samples.

Results

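The genotype by cell type interaction is the part of the effect of the Il2ra mutation that differs between regulatory T (Treg) cells and conventional T (Tconv) cells. For each transcript it was the difference between Il2ramut/mut and wild type (WT) cells in Treg cells minus the same difference in Tconv cells, both as log2 signals, so a value of 1 means that the fold in Treg cells was 2 times that in Tconv cells. A positive value arises when a transcript was raised by the mutation more in Treg than in Tconv cells, or lowered more in Tconv than in Treg cells. The members were all 65956 transcript probe sets of the 72688 on the array, measured on all 10 arrays of the series.

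IL-2 is sensed through a receptor of 3 chains. The alpha chain CD25, encoded by Il2ra, raises the affinity for IL-2, while the beta and common gamma chains carry the signal, chiefly through STAT5. Treg cells display CD25 at all times and depend on IL-2, whereas resting Tconv cells show little CD25 until they are activated. The comparison asks whether the same mutation goes with different transcript changes in the 2 cell types.

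The cells were CD4+ T cells from lymph nodes of female C57BL/6 mice aged 6 to 8 weeks, and every group carried the Foxp3-RFP reporter, by which RFP+ Treg and RFPneg Tconv cells were flow-sorted. Il2ramut/mut mice were homozygous for a spontaneous point mutation that, per the study, lowers CD25 on the cell surface and weakens the response to IL-2. The line arose in a colony lacking Ccr2 and was then bred to carry Ccr2 again, and the mutation is present in all cells of the animal, so Treg and Tconv cells of these mice also share its consequences in other cells. Each genotype was represented by 3 arrays of Treg cells and 2 arrays of Tconv cells. Per the study's methods, but not the labels, the sort took Tconv cells of a naive surface type, without CD25, low in CD44 and high in CD62L. The sources give mice for the arrays but not whether a Treg and a Tconv array came from the same mouse, and p-values measure the spread between these arrays.

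Array medians lay between 4.97 and 5.13 (log2), between 40.3% and 51.3% of transcript probe sets were above an array's background, and arrays of a group correlated at 0.995 or more across probe sets. The labels fitted the markers measured: Il2ra was between 14.92 and 15.31 on Treg arrays and between 6.04 and 6.48 on Tconv arrays, and Ikzf2, a transcription factor of Treg cells, lay between 13.57 and 14.19 against 5.34 to 5.77. Foxp3 was not measured by a probe set of 1 gene. Cd79a and Ms4a1, which define B cells, were above background on no array. Of 12 measured B cell genes, however, 6 were above background on all WT Tconv arrays and 6 on all WT Treg arrays. In Il2ramut/mut mice these counts were 3 in Tconv and 4 in Treg cells. Cd8b1 was above background on all 10 arrays, highest on WT Tconv replicate 1 (10.81, against 8.96 to 9.97 elsewhere), while Cd8a was above background on none. In sorted bulk cells a smaller share of cells expressing a gene and less RNA per cell cannot be told apart.

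Because results below turn on Gzmb on the positive side and on Dusp1 and other early response genes on the negative side, the 250 bases before the transcription start of 3 of these genes are shown, taken from RefSeq (GRCm38.p6) and written 5′ to 3′ on the strand of the gene. Capitals mark matches, on either strand, to the AP-1 site TGANTCA, the cyclic AMP response element TGACGTCA or its shorter core TGACG, which lies inside the full element. The Gzmb window is chr14:56262335-56262584 on the minus strand, the Dusp1 window chr17:26508473-26508722 on the minus strand and the Fos window chr12:85473640-85473889 on the plus strand.
Gzmb: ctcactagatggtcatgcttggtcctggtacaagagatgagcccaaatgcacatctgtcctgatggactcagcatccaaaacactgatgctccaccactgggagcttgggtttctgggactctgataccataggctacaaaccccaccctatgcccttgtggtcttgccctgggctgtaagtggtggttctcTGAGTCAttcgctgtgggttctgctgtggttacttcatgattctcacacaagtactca
Dusp1: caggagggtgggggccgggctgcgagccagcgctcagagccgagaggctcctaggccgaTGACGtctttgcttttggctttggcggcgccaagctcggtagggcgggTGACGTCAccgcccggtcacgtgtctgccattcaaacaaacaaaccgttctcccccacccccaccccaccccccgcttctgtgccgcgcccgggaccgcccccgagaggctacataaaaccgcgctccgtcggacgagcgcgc
Fos: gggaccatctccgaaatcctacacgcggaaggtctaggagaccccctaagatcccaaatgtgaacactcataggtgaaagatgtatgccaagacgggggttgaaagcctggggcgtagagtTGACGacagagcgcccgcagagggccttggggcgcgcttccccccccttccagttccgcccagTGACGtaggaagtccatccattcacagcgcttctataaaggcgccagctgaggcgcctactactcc

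The Gzmb window held an AP-1 site, the Dusp1 window the full response element and another copy of its core, and the Fos window 2 copies of the core. Of all 32851 RefSeq promoter windows of this length, 6.75% held the AP-1 site, 1.55% the full element and 17.8% the core. Among the 13 windows found for 11 of the 15 genes of lowest p with a positive interaction, 3 held the AP-1 site (Gzmb, Cd80 and F2rl2) and 0 the full element. Among the 12 windows of 9 of the 15 genes of lowest p with a negative interaction, 0 held the AP-1 site and 3 the full element (Dusp1, Gk5 and Gpm6b). For the gene lists described below, the AP-1 site was in 7 of 20 windows of effector Treg genes, 5 of 18 of interferon-stimulated genes and 1 of 27 of early response genes. The core was in 14 of 27 windows of early response genes, 2 of 20 of effector Treg genes and 2 of 18 of interferon-stimulated genes. It was also in 9 of 35 windows of proliferation genes and 6 of 26 of resting genes. The STAT site TTCNNNGAA was in 7.02% of all windows, 0 of the 13 positive and 1 of the 12 negative ones. It was in 2 of 20 windows of effector Treg genes and 3 of 18 of interferon-stimulated genes. The serum response CArG box was in 1.47% of all windows and 5 of 27 of early response genes. These are matches of letters in a short window and not measured sites.

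Across all transcripts, Gzmb alone had an interaction that passed the test. limma called 1 of 65956 probe sets at a Benjamini-Hochberg adjusted p under 0.05 (0.00152%), although the same fit called 246 (0.373%) for the genotype difference in Treg cells and 2 (0.00303%) for that in Tconv cells. At an unadjusted p under 0.05 there were 4301 interactions, of which 1806 (2.74%) were positive and 2495 (3.78%) negative. A conventional 2-way ANOVA without moderation called 0 after adjustment and 3806 at an unadjusted p under 0.05. The arrangement of arrays makes the standard error of the interaction 1.58 times that of the Treg difference, and among probe sets above background the median 95% confidence interval reached 0.455 to either side of the estimate, against 0.288 for the Treg difference. An interaction that missed the threshold is therefore not shown to be 0. With signals raised to at least the background of their array, 107 interactions passed, 35 positive and 72 negative. That setting also changed the moderation of all probe sets, so its count is not comparable with the main one.

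Gzmb (TC1400002120.mm.1) encodes granzyme B, a protease that cytotoxic lymphocytes and activated Treg cells use to kill target cells. Its signal was 6.99, 7.27 and 7.17 on the WT Treg arrays and 10.33, 10.26 and 10.27 on the Il2ramut/mut Treg arrays. In Tconv cells it was 4.80 and 5.17 in WT and 4.91 and 4.77 in Il2ramut/mut mice, with only 1 of these 4 arrays above its background. The Treg groups were thus far apart, and the Tconv arrays were all near background. The Treg difference of 3.14 ± 0.11 (SE) and the Tconv difference of -0.14 ± 0.14 gave an interaction of 3.28 ± 0.18 (95% confidence interval 2.88 to 3.69, adjusted p = 0.000681), a 9.73-fold ratio of the folds. Since Il2ramut/mut Tconv cells were not above background, their level is only an upper bound. With every signal raised to at least its array's background the interaction was 3.02 (adjusted p = 2.22e-07, in a fit whose moderation also differed). Gzmb has close copies among the granzyme genes that a probe set may share.

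**Figure D1:**
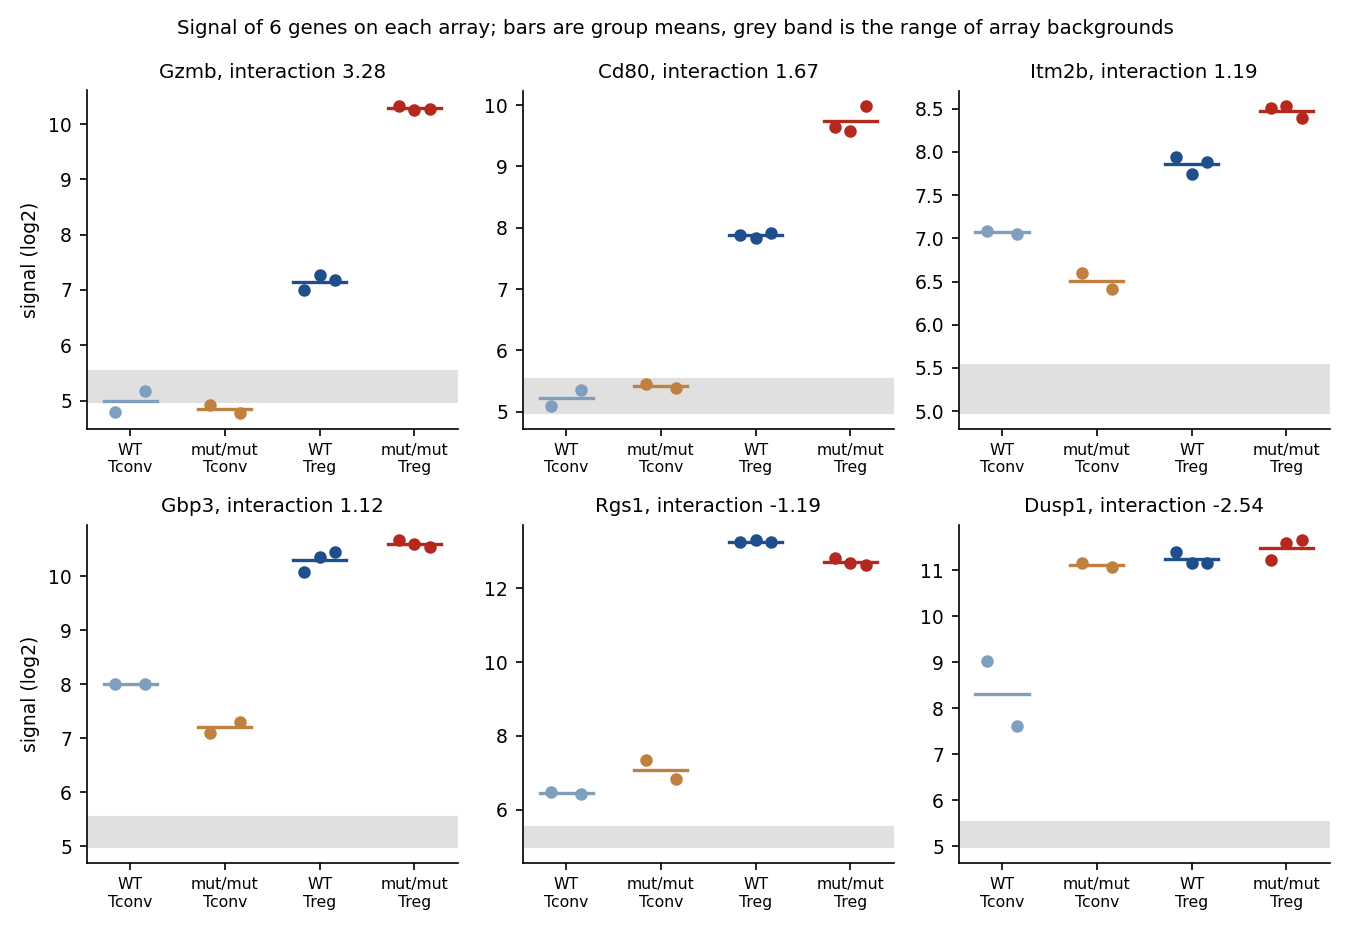
Signal (log2) of 6 genes on each of the 10 arrays, 1 point per array, with group means as bars and the range of the array backgrounds (4.98 to 5.54) in grey. Gzmb and Cd80 lay higher in Il2ramut/mut than in WT Treg cells and near background in Tconv cells, Itm2b and Gbp3 lay lower in Il2ramut/mut Tconv and higher in Il2ramut/mut Treg cells, and Rgs1 and Dusp1 lay higher in Il2ramut/mut Tconv cells.

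Below Gzmb, 8 probe sets shared an adjusted p of 0.0786, and 4 of them named 1 gene. Cd80 encodes a ligand of CD28 and CTLA-4. It was 7.89, 7.83 and 7.91 on WT Treg arrays and 9.64, 9.58 and 9.99 on Il2ramut/mut Treg arrays, and 5.10 and 5.36 in WT against 5.45 and 5.39 in Il2ramut/mut Tconv cells. The mutation thus went with more Cd80 in Treg cells, with Tconv cells near background in both genotypes and an interaction of 1.67 ± 0.19. Lamc1, a chain of the basement membrane protein laminin, had an interaction of 1.27 ± 0.14 with all Il2ramut/mut Tconv arrays below background. Car5b, a mitochondrial carbonic anhydrase, had an interaction of 2.68 ± 0.32, from 7.31, 7.19 and 6.61 on WT and 9.58, 9.89 and 9.40 on Il2ramut/mut Treg arrays, and its Tconv values stayed between 5.69 and 6.11.

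Itm2b, which encodes an integral membrane protein, had genotype differences of opposite sign in the 2 cell types, with no overlap of the genotypes in either. It was 7.94, 7.75 and 7.88 in WT and 8.50, 8.53 and 8.40 in Il2ramut/mut Treg cells. In Tconv cells it was 7.09 and 7.06 in WT and 6.60 and 6.41 in Il2ramut/mut mice. All arrays were above background, and the interaction was 1.19 ± 0.14, made of a Treg difference of 0.62 (adjusted p = 0.0242) and a Tconv difference of -0.57 (adjusted p = 0.387). When only probe sets of exactly 1 gene were tested, Lamc1, Cd80, Car5b and Itm2b passed together with Gzmb (adjusted p = 0.033 to 0.0404), in a fit whose moderation and number of tests both differed. The other 4 probe sets of the tier name no gene here. TC0100000298.mm.1 had an interaction of 2.42 ± 0.24, from a Treg difference of 2.53.

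TC0900001546.mm.1 had an interaction of -2.68 ± 0.31. It was above background only in Il2ramut/mut Tconv cells (6.07 and 6.86), against 3.92 and 3.55 in WT Tconv cells and 3.62 to 3.95 on the 6 Treg arrays, which give only an upper bound. With signals raised to background its interaction was -1.19 (adjusted p = 0.131). It was also 1 of the 2 probe sets called in Tconv cells. The other, TC1000002261.mm.1, had a Tconv difference of 2.07 (adjusted p = 0.0344), with both Il2ramut/mut arrays at 12.93, and a Treg difference of 0.55, which gave an interaction of -1.52 ± 0.24 (adjusted p = 0.173).

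The 15 genes of lowest p with a positive interaction included 3 surface receptors, Cd200r1, Klrg1 and F2rl2. Cd200r1, the inhibitory receptor for CD200, was 9.98, 10.09 and 9.70 in WT and 11.01, 11.12 and 11.35 in Il2ramut/mut Treg cells, with an interaction of 1.48 ± 0.19 (adjusted p = 0.117). Klrg1, an inhibitory receptor of antigen-experienced lymphocytes, was 8.54, 8.89 and 8.30 against 10.53, 10.95 and 11.20 in Treg cells, and between 5.49 and 5.92 on the 4 Tconv arrays. Its interaction of 2.30 ± 0.31 equalled its Treg difference of 2.32 but for 0.02. F2rl2, a protease-activated receptor, had an interaction of 0.79 ± 0.12. Signaling, cytoskeletal and lysosomal genes followed: Gna15, a G protein alpha subunit (1.22 ± 0.18), Myo1f, an unconventional myosin (1.09 ± 0.15), Arfgef2, an exchange factor for ARF GTPases (1.14 ± 0.17), and Lgmn, the lysosomal protease legumain (1.59 ± 0.24). Frmd5, a FERM domain protein, was 5.54, 5.78 and 5.44 in WT and 8.01, 7.74 and 8.73 in Il2ramut/mut Treg cells, with Tconv arrays at 5.15 to 5.32. Frmd5 was above background on 1 Tconv array of each genotype, and Gna15 on 1 WT and no Il2ramut/mut Tconv array. With signals raised to background the interaction was 2.48 for Frmd5 and 1.04 for Gna15. None of these 8 genes passed the adjusted threshold for the interaction (adjusted p = 0.117 to 0.148). The Treg difference passed for all 8 (adjusted p = 0.00216 to 0.0301).

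The 15 genes of lowest p with a negative interaction fell into transcripts that were lower in Il2ramut/mut Treg cells and transcripts that were higher in Il2ramut/mut Tconv cells. Dscam, a cell adhesion molecule, belonged to the former. It was 7.85, 7.18 and 7.44 in WT and 5.86, 6.19 and 5.94 in Il2ramut/mut Treg cells, while all 4 Tconv arrays were below background, and its interaction was -1.66 ± 0.26 (adjusted p = 0.148). Tgfbr3, a coreceptor for TGF-beta, was 8.35, 7.88 and 7.85 against 6.62, 6.81 and 6.73 in Treg cells and 11.19 to 11.69 on Tconv arrays, so that a transcript abundant in Tconv cells of both genotypes was less so in Il2ramut/mut Treg cells (interaction -1.49 ± 0.25, adjusted p = 0.217). Gpm6b, a membrane glycoprotein (-1.10 ± 0.19), Dzip1, a zinc finger protein of cilia (-0.95 ± 0.14), and Setbp1, a SET-binding protein (-0.86 ± 0.16), were also lower in Il2ramut/mut Treg cells. Dzip1 was higher in Tconv than in Treg cells, whereas Gpm6b and Setbp1 were higher in Treg cells. No Il2ramut/mut Tconv array was above background for Setbp1. Gm3642 (adjusted p = 0.217), a gene model with close copies that its probe set may share, carries a chromosome 14 identifier, as does Dzip1. Of all 31437 probe sets above background, 1801 had a negative interaction at an unadjusted p under 0.05. Of 70 probe sets with chromosome 14 identifiers called lower in Il2ramut/mut Treg cells, 69 had one, and the median of the 70 was -0.83. They were chosen by the Treg difference, which is a part of the interaction, and those of close copies are not independent of each other.

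Coro2a, an actin-binding coronin, was of the other form. It was 11.61, 11.79 and 11.48 in WT and 11.48, 11.69 and 11.75 in Il2ramut/mut Treg cells, which overlapped. In Tconv cells it was 6.42 and 6.49 in WT and 7.36 and 7.48 in Il2ramut/mut mice, and the interaction was -0.95 ± 0.17 (adjusted p = 0.226). Ddit4, an inhibitor of mTOR complex signaling induced by stress, was 7.46 and 6.91 against 8.45 and 8.31 in Tconv cells (interaction -1.60 ± 0.28, adjusted p = 0.217). Hus1, of the DNA damage checkpoint clamp, had an interaction of -0.75 ± 0.14 of which 0.56 came from Tconv cells. Gk5, a glycerol kinase family member (-0.91 ± 0.13, adjusted p = 0.117), had opposite signs in the 2 cell types. It lay between 5.93 and 6.08 in WT and 5.44 and 5.46 in Il2ramut/mut Treg cells. In Tconv cells it lay at 6.24 and 6.22 in WT and 6.67 and 6.52 in Il2ramut/mut Tconv cells. Among small RNA genes, Snord70 (-1.52 ± 0.27), Gm23344 (-1.61 ± 0.27) and Mir466b-2 (-0.88 ± 0.16) were on the negative and Gm22067 (1.38 ± 0.19) on the positive side. Mir466b-2 has close copies, so its probe set may read several.

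The IL-2 receptor itself showed no called interaction. Il2ra was between 14.92 and 15.01 in WT and 15.31, 15.24 and 15.14 in Il2ramut/mut Treg cells. In Tconv cells it lay at 6.38 and 6.48 in WT against 6.04 and 6.09 in Il2ramut/mut Tconv cells. The groups did not overlap in either cell type and lay in opposite directions, with an interaction of 0.62 ± 0.13 (95% confidence interval 0.33 to 0.90, unadjusted p = 0.000754, adjusted p = 0.277). Il2rb, the beta chain, had an interaction of -0.21 ± 0.18 (-0.61 to 0.18). The common gamma chain gene Il2rg was not measured by a probe set of 1 gene. Of 27 measured targets of IL-2 and STAT5 signaling, 9 had a positive and 1 a negative interaction at an unadjusted p under 0.05, beside 2.84% and 2.41% of all 30098 genes with 1 probe set each. The median was 0.19, against 0.006 over all genes.

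Members of that list differed in form. For Gzmb, Il10, Prdm1 and Socs2 the positive interaction came from the Treg difference. For Pim2, a kinase of the survival response to cytokines, it came from the Tconv difference. Pim2 was 8.54 and 8.21 in WT and 7.30 and 7.56 in Il2ramut/mut Tconv cells, against 7.06 to 7.22 and 6.89 to 7.21 in WT and Il2ramut/mut Treg cells (interaction 0.90 ± 0.20, adjusted p = 0.322). Bcl2, which blocks apoptosis, was the negative member (-0.71 ± 0.17). Cish (0.01) and Socs1 (0.07), both feedback inhibitors induced by STAT5, lay near 0.

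Of the 246 probe sets called in Treg cells, 113 were higher and 133 lower in Il2ramut/mut mice, and 1 of them, Gzmb, was called for the interaction. These probe sets were chosen by the Treg difference, which is a part of the interaction, so their interactions are a description. The Tconv arrays did not take part in that difference. Among the 113 higher ones the median Tconv difference was 0.03, and 63 (55.8%) had the sign of the Treg difference. Among the 133 lower ones the median was -0.09 and 97 (72.9%) had the same sign. Of the chromosome 14 probe sets among these lower ones, 59 of 70 had the same sign. Over all 31437 probe sets above background, 57.0% had the same sign in both cell types. There 13780 Tconv differences were positive and 17657 negative, so the share to compare with was smaller for the higher than for the lower ones.

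The median interaction was 0.85 for the higher and -0.85 for the lower probe sets, and its confidence interval left out 0 for 106 and 127 of them. A Tconv level was lacking for some: 22 of the higher and 9 of the lower ones were at background on all 4 Tconv arrays, where a difference between the genotypes could not be measured. For the 181 above background on all 4 Tconv arrays, the Tconv differences ran from -0.72 to 0.98, and 170 intervals of the interaction left out 0. Over all 31437 probe sets above background, the Treg and Tconv differences correlated at 0.122 (Pearson) and 0.156 (Spearman) across probe sets, which are not independent, and the 2 differences share no array.

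**Figure D2:**
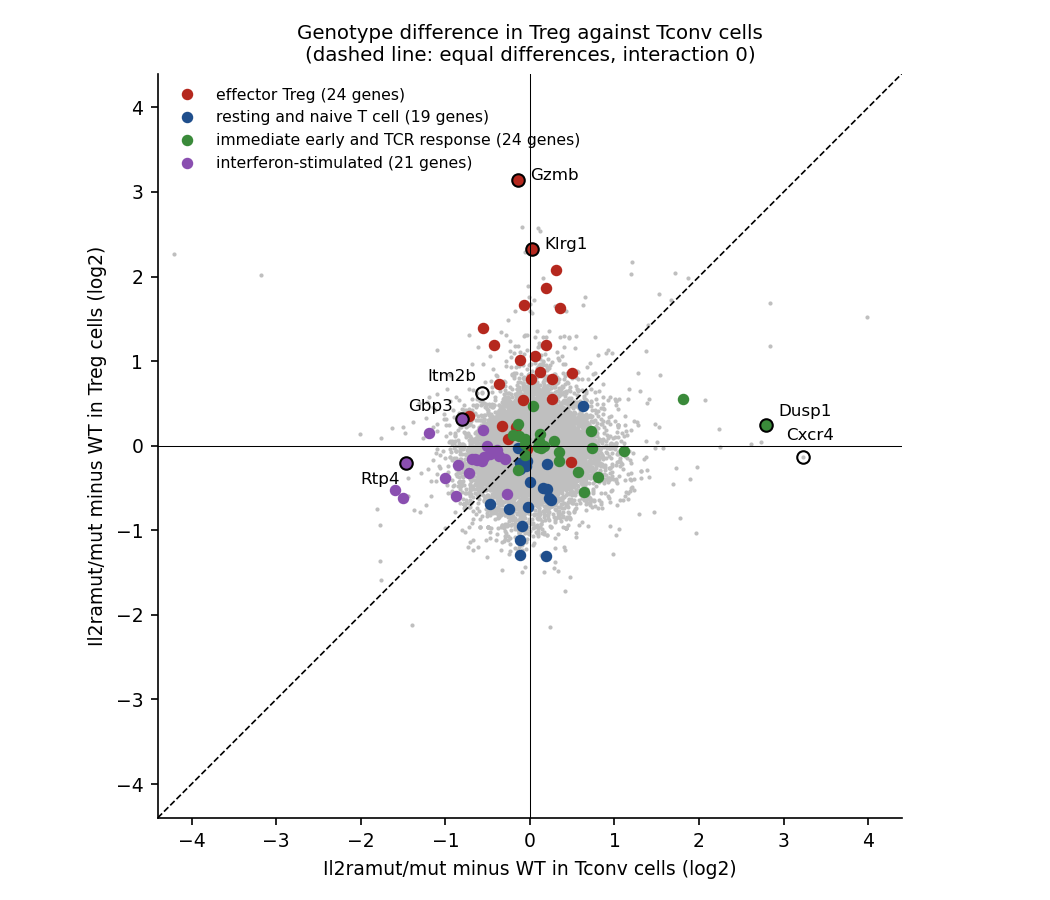
Difference between Il2ramut/mut and WT cells (log2) in Treg cells on the vertical axis against that in Tconv cells on the horizontal axis, with 1 grey point for each of 31437 probe sets above background. Colored points are the genes above background in 4 lists, circled points are named genes, and the dashed line marks equal differences. Most effector Treg genes lie above 0 along the vertical axis, most resting genes below it, interferon-stimulated genes to the left and most early response genes, such as Dusp1, to the right.

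Genes of effector Treg cells, the activated Treg cells of tissues, were higher on Il2ramut/mut than on WT Treg arrays, with little difference among Tconv arrays. On average over 24 members above background, the list lay at 9.96 to 10.08 on WT and 10.99 to 11.07 on Il2ramut/mut Treg arrays, and at 6.31 and 6.52 in WT and 6.39 and 6.41 in Il2ramut/mut Tconv cells. The median interaction of its 25 measured genes was 1.00, made of 0.86 in Treg and -0.04 in Tconv cells. 17 were positive and 1 negative at an unadjusted p under 0.05, and 1, Gzmb, passed the adjusted threshold. Over all genes with 1 probe set each, 2.84% were positive and 2.41% negative at that unadjusted p. The median was 0.66 without WT Tconv replicate 2. This list was chosen with the Treg results known, so its direction is no independent evidence. The other lists were also chosen with earlier results of these data known, and the same limit holds for them. Members of a list are not independent of each other, so their counts say little about independent changes.

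Secreted and surface mediators made up much of the list. Fgl2, a secreted suppressor molecule of Treg cells, was 7.51, 7.35 and 7.40 in WT and 9.27, 9.77 and 9.45 in Il2ramut/mut Treg cells with no Tconv array above background (interaction 1.78 ± 0.29, adjusted p = 0.173). Ccr2, a receptor for monocyte chemoattractants, was 8.73, 8.92 and 8.79 against 10.59, 9.92 and 10.91 in Treg cells (1.73 ± 0.34, adjusted p = 0.26). Il10, a suppressive cytokine, was 6.43, 6.36 and 6.94 against 8.58, 7.71 and 8.34 (1.27 ± 0.39, adjusted p = 0.551). For Il10 no WT and 1 Il2ramut/mut Tconv array was above background. Among transcription factors, Maf, which acts with Il10 in T cells, had an interaction of 1.09 ± 0.18 (adjusted p = 0.184) and Prdm1, which encodes Blimp-1, one of 0.75 ± 0.18.

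Some members went another way. Rora was positive through both cell types, with a Treg difference of 0.35 and a Tconv difference of -0.72 (interaction 1.08 ± 0.34). Lgals1, which encodes galectin-1, had a Treg difference of 1.19 and a Tconv difference of -0.43. Cd44, a receptor for hyaluronan used to mark experienced T cells, was the negative member (-0.68 ± 0.15, adjusted p = 0.311). It lay at 7.10 and 7.26 in WT and 7.70 and 7.61 in Il2ramut/mut Tconv cells, and at 9.77 to 9.98 and 9.58 to 9.79 in WT and Il2ramut/mut Treg cells. Batf, an AP-1 family factor of effector Treg cells, had an interaction of -0.00074 with a Treg and a Tconv difference of -0.04 each.

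Costimulatory and inhibitory receptors partly overlapped with these genes. Of 24 measured, 8 were positive and 2 negative at an unadjusted p under 0.05, beside 2.84% and 2.41% of all genes. The median was 0.22. Besides Cd80, Klrg1 and Cd200r1, the inhibitory receptors Tigit (1.13, with no Tconv array above background, and 0.84 with signals raised to background, adjusted p = 0.158), Lag3 (1.00) and Havcr2 (0.78) and the costimulatory receptor Icos (0.62) were positive, and the negative ones were Cd28 (-0.43) and the inhibitory receptor Btla (-0.50). Of 18 genes of Treg identity, 5 were positive (Il2ra, Swap70, Ikzf2, Entpd1 and Socs2, at 0.57 to 0.84) and 1 was negative, Plagl1, a zinc finger transcription factor (-0.75 ± 0.16). Of 19 chemokine and homing receptors, Ccr2, Ccr3 and Ccr4 were positive (1.73, 1.78 and 1.00) and Cxcr4 and Ccr7 negative (-3.36 and -0.65).

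Genes of the cell cycle had mostly positive interactions. Of 37 measured, 18 were positive and 0 negative at an unadjusted p under 0.05, beside 2.84% and 2.41% of all genes. The median interaction was 0.43 (0.45 in Treg and 0.03 in Tconv cells). Their mean on the arrays was 6.82 to 7.05 in WT and 7.38 to 7.69 in Il2ramut/mut Treg cells. In Tconv cells it was 6.32 and 6.31 in WT and 6.37 and 6.41 in Il2ramut/mut mice, which did not overlap but lay close together. A positive Tconv difference was found for 28 of the 37 genes, against 12 of 25 in the effector list. Top2a, a topoisomerase of dividing cells, was 7.63, 7.29 and 7.31 against 8.82, 8.17 and 8.76 in Treg cells, with an interaction of 1.36 ± 0.27 (adjusted p = 0.26), and Ncapg, a condensin subunit, had one of 1.03 ± 0.18 (adjusted p = 0.217). Mki67, the proliferation marker Ki-67, was among the members with a positive Tconv difference too (0.63, against 1.66 in Treg cells), at 5.48 and 5.42 in WT and 5.91 and 6.24 in Il2ramut/mut Tconv cells. The Treg groups did not overlap for Top2a, Ncapg or Mki67. Ncapg was above background on no Il2ramut/mut Tconv array.

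**Figure D3:**
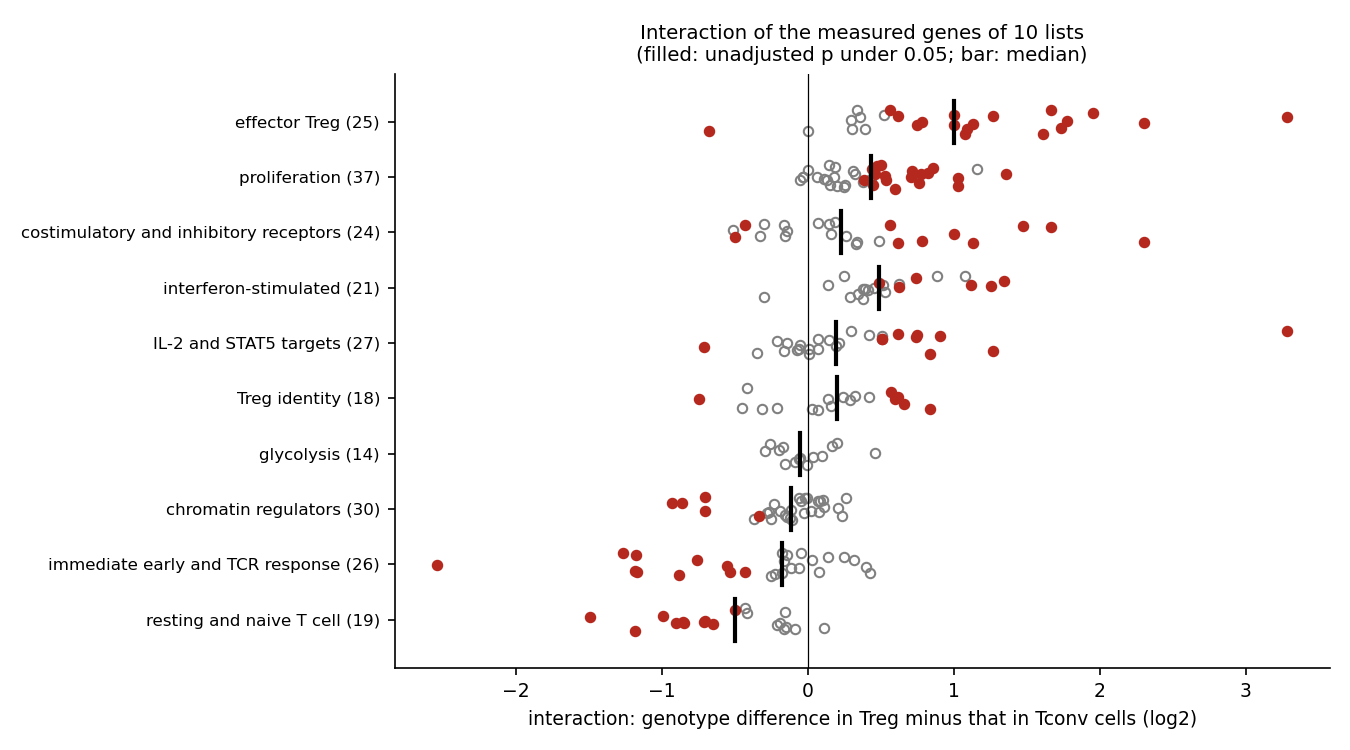
Interaction (log2) of every measured gene of 10 lists, 1 point per gene, filled at an unadjusted p under 0.05, with the median of each list as a bar and the number measured in brackets. The medians run from 1.00 for effector Treg genes to -0.50 for genes of resting T cells, and the early response genes trail to -2.54 (Dusp1).

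Genes of resting and naive T cells had mostly negative interactions. Of 19 measured, 0 were positive and 10 negative at an unadjusted p under 0.05, beside 2.84% and 2.41% of all genes. The median was -0.50 (-0.51 in Treg and -0.03 in Tconv cells). Their mean was 11.27 to 11.40 in WT and 10.71 to 10.95 in Il2ramut/mut Treg cells, while the Tconv arrays lay at 12.81 to 12.98 without a split by genotype. Besides Tgfbr3, St8sia1, a sialyltransferase of gangliosides, was 10.30, 10.58 and 10.43 against 9.42, 9.11 and 8.89 in Treg cells (interaction -1.18 ± 0.24, adjusted p = 0.271). Igfbp4, which binds insulin-like growth factors, had an interaction of -0.99 ± 0.23, Satb1, a chromatin organizer of T cells, one of -0.71 ± 0.25, and the lymph node homing receptor Ccr7 one of -0.65. Foxo1 (0.11), Klf2 (-0.16) and Il7r (-0.16), all of the same quiescent program, lay near 0.

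The early response genes, which T cells induce within minutes of stimulation, had mostly negative interactions. Those at an unadjusted p under 0.05 came mainly from higher values in Il2ramut/mut than in WT Tconv cells. Of 26 measured, 19 had a negative and 7 a positive interaction, the highest 0.43. At an unadjusted p under 0.05, 0 were positive and 10 negative, beside 2.84% and 2.41% of all genes. The median was -0.18 (-0.01 in Treg and 0.14 in Tconv cells). The list mean was 7.78 and 7.55 in WT and 8.05 and 8.12 in Il2ramut/mut Tconv cells, and 8.55 to 8.72 and 8.62 to 8.70 in WT and Il2ramut/mut Treg cells, which overlapped. Dusp1, a phosphatase that turns off MAP kinases and whose promoter window holds the full response element printed above, was 9.03 and 7.61 in WT and 11.15 and 11.06 in Il2ramut/mut Tconv cells. The Il2ramut/mut Tconv level was close to that of Treg cells of both genotypes (11.16 to 11.66). The interaction was -2.54 ± 0.46 (adjusted p = 0.245), and the WT Tconv arrays lay far apart. Without WT Tconv replicate 1, the higher of them, it was -3.25 (adjusted p = 0.0106), from a fit in which the lone WT Tconv array is assumed to vary like the other groups.

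Jun, a subunit of AP-1, was 6.60 and 5.84 in WT and 7.98 and 8.09 in Il2ramut/mut Tconv cells, against 5.99 to 6.29 and 6.65 to 6.78 in WT and Il2ramut/mut Treg cells. Its difference was thus positive in both cell types and larger in Tconv cells (interaction -1.26 ± 0.27, adjusted p = 0.301). Fos, its partner in AP-1, was above background on the 2 Il2ramut/mut Tconv arrays alone (5.77 and 5.65), with 4.96 and 5.01 in WT Tconv cells, and its interaction of -0.55 ± 0.12 rests on a bound for the other groups. Rgs1, which dampens signaling of chemokine receptors, was 6.47 and 6.43 in WT and 7.35 and 6.82 in Il2ramut/mut Tconv cells but 13.25, 13.31 and 13.25 in WT and 12.83, 12.68 and 12.64 in Il2ramut/mut Treg cells, so its negative interaction of -1.19 ± 0.20 came from both sides (adjusted p = 0.217). Dusp2 (-1.17), Ppp1r15a (-1.17), Cd69 (-0.88), Btg2 (-0.76), Ier2 (-0.53) and Nfkbid (-0.43) made up the remainder.

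Cxcr4, the receptor for CXCL12, had the most negative interaction of all transcript probe sets at -3.36 ± 0.62 (adjusted p = 0.245). It was 10.85 and 9.82 in WT and 13.19 and 13.92 in Il2ramut/mut Tconv cells, and 13.40 to 14.72 and 13.48 to 14.09 in WT and Il2ramut/mut Treg cells, which overlapped. Btg1, an antiproliferative gene of quiescent lymphocytes looked up for its size, was 12.96 and 12.20 against 14.56 and 14.54 in Tconv cells (interaction -2.23 ± 0.50). Levels of early response transcripts can follow the handling of cells, and a list of heat shock and dissociation genes was therefore read beside them. Of its 15 measured genes 0 were positive and 1, Ddit4, negative at an unadjusted p under 0.05, with a median of -0.06. Its mean was 8.78 and 8.69 in WT and 8.90 and 8.87 in Il2ramut/mut Tconv cells, which did not overlap either, and 9.15 to 9.24 on the Treg arrays. The part of handling in the result was not tested.

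**Figure D4:**
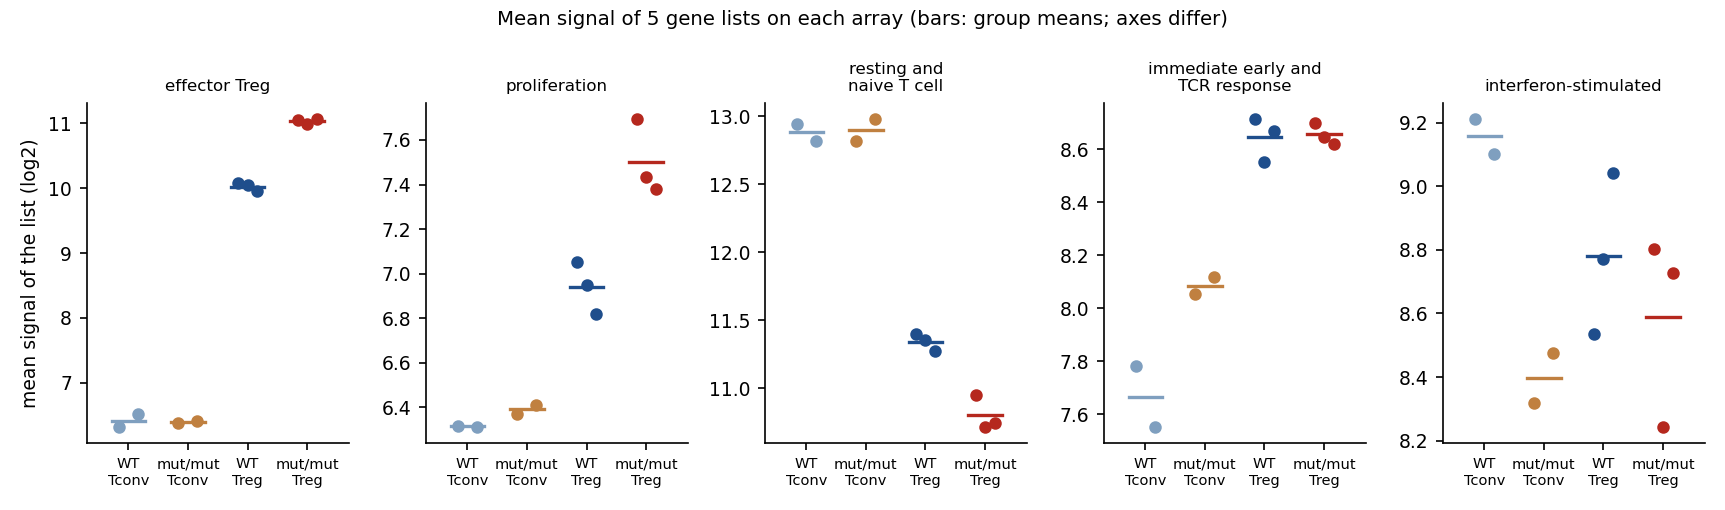
Mean signal (log2) of the members above background of 5 gene lists on each array, 1 point per array with group means as bars, and a separate vertical axis for each list. Effector, proliferation and resting lists separate the 2 Treg groups, and the early response, interferon-stimulated and, narrowly, proliferation lists separate the 2 Tconv groups. With 2 arrays per Tconv group such a split carries little weight: the heat shock, glycolysis and chemokine receptor lists, not drawn, split them too.

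Interferon-stimulated genes had mostly positive interactions, which came mainly from lower values in Il2ramut/mut than in WT Tconv cells. All 21 measured genes had a negative Tconv difference (median -0.64), while 18 of 21 were negative in Treg cells with a median of -0.16. The interaction was positive for 20 of 21, with a median of 0.49. At an unadjusted p under 0.05, 6 were positive and 0 negative, beside 2.84% and 2.41% of all genes. The list mean was 9.21 and 9.10 in WT and 8.32 and 8.48 in Il2ramut/mut Tconv cells. In Treg cells it was 8.54, 8.77 and 9.04 in WT and 8.80, 8.24 and 8.73 in Il2ramut/mut mice, which overlapped. Between arrays of a group the list mean varied with a standard deviation of 0.235, which is not small beside the median interaction. These genes are induced together, so their number says little about independent changes.

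Gbp3, an interferon-induced GTPase, had the lowest p of the list. It was 8.00 and 8.01 in WT and 7.10 and 7.30 in Il2ramut/mut Tconv cells, and 10.07, 10.35 and 10.45 in WT and 10.67, 10.60 and 10.54 in Il2ramut/mut Treg cells. The signs were thus opposite and neither pair of groups overlapped, with an interaction of 1.12 ± 0.17 (adjusted p = 0.148). Ifi27l2a, another interferon-induced gene, was 8.57 and 8.50 against 7.22 and 7.45 in Tconv cells and overlapped in Treg cells (1.34 ± 0.33, adjusted p = 0.371). Rtp4 was 10.19 and 9.93 against 8.59 and 8.61 in Tconv cells, and 8.46 to 9.47 and 8.12 to 9.16 in Treg cells (1.26 ± 0.46, adjusted p = 0.677). Irf9, the DNA-binding part of the interferon response complex, had an interaction of 0.49 and the antiviral genes Oas3 and Ifit3 of 0.74 and 0.62. Gbp3 and Ifi27l2a have close copies that their probe sets may share.

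Counts for further lists are at an unadjusted p under 0.05, where 2.84% of all genes were positive and 2.41% negative. Of 17 lineage transcription factors 6 were positive, among them Ahr (0.97) and Tbx21 (0.51), and 0 negative. Of 30 chromatin regulators 0 were positive and 5 negative, among them Setbp1, Scmh1 (-0.93 ± 0.26) and Tet1 (-0.70). Of 28 integrin and actin genes 7 were positive and 3 negative, with Itgb1 at 0.93 and Itgae at 0.78 on one side and the actin cross-linker Actn1 (-0.85) and Cnn3 (-1.01) on the other. Of 17 cholesterol synthesis genes 2 were positive, Sc5d (0.64) and Mvk (0.40). All 14 glycolysis genes stayed above an unadjusted p of 0.05, with interactions from -0.29 to 0.46. Of 17 survival genes 2 were positive, the death ligand gene Tnfsf10 (1.04) and Bcl2l1 (0.51), and 4 negative. The 8 housekeeping genes ran from -0.29 to 0.14.

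In the lists for other cells, 1 of 12 B cell genes (H2-Eb1, 0.31) and 1 of 18 myeloid genes (Tyrobp, 0.53, above background on 1 array, and 0.19 with signals raised to background) were positive at an unadjusted p under 0.05 and 0 were negative, and 0 of 11 stromal, 3 gamma delta T cell, 2 CD8 T cell and 2 erythroid genes were either. Over all genes, 2.84% were positive and 2.41% negative at that p. The summed level (log2) of the myeloid list was 12.75 to 12.90 in WT and 12.71 to 13.02 in Il2ramut/mut Treg cells, and 13.41 to 13.49 and 13.36 to 13.79 in WT and Il2ramut/mut Tconv cells. Of 10 markers of natural killer and innate lymphoid cells, Il17rb (1.59 ± 0.38), Klrb1c (0.67) and Eomes (0.37) were positive and Prf1 (-0.85 ± 0.30) negative, and the summed level of the list (log2) was 8.51 to 8.70 in WT and 8.90 to 9.32 in Il2ramut/mut Treg cells, against 10.36 to 11.12 and 10.57 to 11.12 in WT and Il2ramut/mut Tconv cells. The summed level of the B cell list was 16.83 to 16.85 in WT and 17.00 to 17.04 in Il2ramut/mut Treg cells and 15.71 to 15.95 over Tconv arrays. On Treg arrays 1 member alone lay at 16.83 to 17.03, so this sum is mostly 1 gene. Among the other members, Cd79a and Ms4a1 were at background throughout, while H2-Ab1 was above background on every array. In the myeloid list Ly6c2 alone lay at 13.00 to 13.52 on Tconv arrays. The part of such cells in the interactions was not tested.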

How the data were processed

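RNA of sorted cells was hybridised to the Affymetrix Mouse Transcriptome Array 1.0 Pico, 1 array per sample. The authors deposited 1 log2 signal per probe set and array, made with Expression Console 1.4.1.46 and Transcriptome Analysis Console 3.1.0.5; how probe sets were summarised and normalized, and on which build, was not given in the sources used here. Base 2 was taken from the values, which ran from 1.96 to 19.9. The 6732 control rows were left out. limma 3.58.1 (R 4.3.3) fitted the 4 group means on all 10 arrays, with Benjamini-Hochberg adjustment over 65956 probe sets. The fit was tested on simulated data. Each array's 23 antigenomic control probe sets set its background (their 95th percentile), and a probe set above it on every array of a group counted as above background. Of the transcript probe sets, 30638 named 1 gene (30636 of these symbols matched RefSeq), 2176 several genes and 33142 none. Genes were named by a rule: among single-gene probe sets above background, the 15 of lowest p in each direction, the 10 of lowest p for the genotype difference in each cell type, list members that were called, the 2 of lowest p in each list, and the IL-2 receptor chains. Further genes were picked with their values in view. The genes and lists were chosen with earlier results of these data known. Alternatives were quantile normalization, centring, filters, signals raised to background, moderation settings, 2-way ANOVA, replicate blocks and leaving out each array.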

Additional observations from a re-analysis of the deposited data

Results flagged for a closer look

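The genotype difference of Gzmb differed between the cell types by the test of the difference itself: the interaction was 3.28 ± 0.18 (limma, adjusted p = 0.000681), with Il2ramut/mut above WT on all Treg arrays and the Tconv arrays near background.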

How the results depend on the processing

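Gzmb kept its call under every alternative that tested it except the 2-way ANOVA (adjusted p = 0.131), with interactions of 3.02 to 3.47 and, leaving out each array in turn, adjusted p = 0.00132 to 0.0125. The count of called interactions, 1, was 107 with signals raised to background, 5 with probe sets of exactly 1 gene, 0 without chromosome 14 identifiers (Gzmb carries one) and 0 by 2-way ANOVA, and 1 to 3 leaving out each array in turn. Where a Tconv group was left with 1 array, that array was assumed to vary like the other groups. Raising signals to background also changed the moderation of all probe sets, so its counts are not comparable with the main ones. Without WT Tconv replicate 1, S100a6 (above background on no Tconv array) and Dusp1 were called too, without Il2ramut/mut Tconv replicate 1 a pair of unnamed probe sets, without Il2ramut/mut Treg replicate 1 TC0100000298.mm.1 and without Il2ramut/mut Treg replicate 2 Daw1. Among probe sets called in Treg cells the same settings gave 61, 5, 0 and 0, and 1 to 2 leaving out arrays. The median of the effector Treg list was 0.84 with signals raised to background, 0.89 without chromosome 14 identifiers, 0.78 as the median over the probe sets of a gene and 0.66 to 0.98 leaving out arrays. That of the proliferation list was 0.31 with signals raised to background, and that of the resting list -0.64 to -0.41 leaving out arrays. Signs changed with signals raised to background for H1f5 (0.91 before, -0.0251 after) and Prox1 (-0.0251), both above background on no array, and Alas2 (0.0318), and leaving out arrays Cd8b1 (-0.16 to 0.68), Cd163l1 (-0.12 to 0.14), Alas2 (-0.16 to 0.0027) and Slc4a1 (-0.0976 to 0.0371). With signals raised to background, every signal of H1f5 and Prox1 was its array's background, so -0.0251 contrasts backgrounds and carries no gene signal. Apart from such construction of the settings, the cause of the sign changes was not tested. With the replicate number as a block, 1 interaction was called (Gzmb, adjusted p = 0.0157) and 127 probe sets in Treg cells in place of 246. Deviations of same-numbered Treg and Tconv arrays correlated at 0.073 and 0.08 in WT and -0.019 and -0.051 in Il2ramut/mut mice. With 2 Tconv arrays per genotype, the deviations of the 2 mirror each other, so these values cannot tell paired from unpaired mice. The labels give no pairing, and the main fit used none. With 2 Tconv arrays per genotype and many Tconv signals near background, differences in Tconv cells were the less precise part of the interaction.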

Other observations

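Some interactions of large size came with a wide spread between arrays and were looked up for their size. Bpifa2, a secreted protein of salivary glands, had the most positive interaction of all transcript probe sets, 6.48 ± 1.74 (limma, adjusted p = 0.453). It was 9.11 and 12.33 in WT and 6.91 and 6.11 in Il2ramut/mut Tconv cells, and 6.28, 5.54 and 5.09 in WT and 8.72, 9.72 and 5.27 in Il2ramut/mut Treg cells, so that arrays of 1 group lay more than 3 log2 units apart. Mir30e, a microRNA gene, had an interaction of -3.00 ± 0.56 (adjusted p = 0.25). It was 6.34 and 6.56 in WT and 8.99 and 7.84 in Il2ramut/mut Tconv cells, and 7.46, 6.81 and 6.72 against 6.13, 5.29 and 6.47 in Treg cells.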
